A study of Mus musculus with 4 samples.

Results

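Chromatin accessibility at 35 nuclear genes of respiratory complexes II, III and IV was read from 4 ATAC-seq libraries of mouse dermal fibroblasts, the collagen-producing cells of the skin. The 35 genes were chosen by their role among 21887 protein-coding genes and not by their values, although earlier results of these data were known. They are the 4 subunits of complex II, 9 subunits of complex III, cytochrome c (Cycs), 14 subunits of complex IV and 7 factors that assemble complex IV. ATAC-seq uses the Tn5 transposase to cut and tag open DNA, and the peaks are regions where such cuts pile up. All cells were of the C57BL/6 strain, and every sample carries the label 100 days, whose starting point the labels leave unstated. The control library came from Sod2+/+ fibroblasts with no treatment named. The knockout library came from fibroblasts with a conditional knockout of Sod2 (genotype Sod2-/-), the gene of mitochondrial manganese superoxide dismutase. The sources used here give neither the promoter or cell type that drives the deletion nor the deleted stretch. The vehicle library came from Sod2+/+ fibroblasts given vehicle, and the rotenone library from Sod2+/+ fibroblasts given rotenone, labelled at 250 µM. Each group had 1 library, so no difference below has a replicate check, and no p-value is given.

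The respiratory chain sits in the inner mitochondrial membrane. Complex II oxidises succinate and feeds electrons to ubiquinone, complex III passes them from ubiquinol to cytochrome c, and complex IV hands them from cytochrome c to oxygen. Rotenone blocks complex I, which lies before complexes III and IV but not before complex II. Manganese superoxide dismutase removes the superoxide that leaks from the chain into the matrix. Complexes III and IV also hold subunits encoded in mitochondrial DNA, which were not analysed here, while all 4 subunits of complex II are encoded in the nucleus. The promoters of nuclear respiratory genes are known for binding NRF1, the ETS factor GABPA, YY1 and Sp1.

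A peak was given to a gene when its midpoint lay in the gene's mm10 span or within 1000 bp of it, which gave 130 peaks for control against 153 for the knockout and 101 for vehicle against 88 for rotenone. A gene-end peak is one whose midpoint lay within 1000 bp of either end of the gene, and the strongest one, by the authors' −log10 p, stands for the gene. It was called strong when it was among the 30000 peaks of its list with the highest −log10 p. The gene rank is the percent of all 21887 protein-coding genes whose strongest gene-end peak was weaker in the same library, with 0 for a gene without such a peak. It has the same denominator in every library, unlike the authors' fold enrichment over local background, which belongs to the single peak. The median fold of the strong peaks was 6.78 for control against 5.49 for the knockout and 7.13 for vehicle against 5.99 for rotenone, so folds are given as levels and directions are read from the gene rank only. Where 4 values follow each other without names, they stand for control, the knockout, vehicle and rotenone, in that order. In bulk cells, a promoter open in fewer cells and a promoter less open in each cell cannot be told apart.

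The lists held 433013 peaks for control against 585165 for the knockout and 340240 for vehicle against 347438 for rotenone, and depth is unknown. At Sod2 the strongest peak had a fold of 7.04 for control against 6.67 for the knockout and 7.54 for vehicle against 7.29 for rotenone. An open promoter does not show whether the gene behind it is deleted, so this does not check the knockout label. Of 10 fibroblast markers, 6 held a strong peak in their span in control and in vehicle, and 5 in the knockout and in rotenone, where Fap was without one. Col1a1, Col3a1, Thy1 and Lum held none in any library. Strong peaks stood at 2 to 3 of 5 keratinocyte markers, 1 to 2 of 4 endothelial markers, 0 to 2 of 4 myeloid and lymphoid markers, 1 to 2 of 4 melanocyte markers and 0 to 1 of 5 skeletal muscle markers. The part of these differences in the results was not tested.

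The promoter windows of 8 members are shown, each running from 250 bases before to 50 bases after the start site, 5′ to 3′ along the gene, as RefSeq gives them on GRCm38.p6. Capitals mark every match, on either strand, to 7 motifs: GCGCANGCG (NRF1), CCGGAAG (ETS), AANATGGCG (YY1), GGGCGG (Sp1), TGACGTCA (CRE), TGANTCA (AP-1) and CACGTG (E-box). Matches that overlap run together, as the NRF1 letters can on both strands of the same stretch. The first 4 windows belong to well-ranked or motif-bearing members among complex II, cytochrome c, the complex IV subunits and the assembly factors: Sdhb (chr4:140961021-140961320, plus strand), Cycs (chr6:50566520-50566819, minus strand), Cox6a1 (chr5:115348909-115349208, minus strand) and Cox10 (chr11:64079423-64079722, minus strand).
Sdhb: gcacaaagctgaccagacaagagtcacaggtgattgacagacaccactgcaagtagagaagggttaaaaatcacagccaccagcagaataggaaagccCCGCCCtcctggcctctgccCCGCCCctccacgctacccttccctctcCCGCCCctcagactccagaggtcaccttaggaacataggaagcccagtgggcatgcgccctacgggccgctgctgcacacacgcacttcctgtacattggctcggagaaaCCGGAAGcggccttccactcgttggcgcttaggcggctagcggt
Cycs: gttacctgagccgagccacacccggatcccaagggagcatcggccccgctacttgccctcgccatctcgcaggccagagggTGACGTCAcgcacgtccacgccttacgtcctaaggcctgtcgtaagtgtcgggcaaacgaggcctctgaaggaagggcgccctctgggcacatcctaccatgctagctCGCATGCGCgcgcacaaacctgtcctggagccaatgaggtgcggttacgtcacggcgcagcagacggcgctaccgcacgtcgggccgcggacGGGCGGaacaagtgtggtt
Cox6a1: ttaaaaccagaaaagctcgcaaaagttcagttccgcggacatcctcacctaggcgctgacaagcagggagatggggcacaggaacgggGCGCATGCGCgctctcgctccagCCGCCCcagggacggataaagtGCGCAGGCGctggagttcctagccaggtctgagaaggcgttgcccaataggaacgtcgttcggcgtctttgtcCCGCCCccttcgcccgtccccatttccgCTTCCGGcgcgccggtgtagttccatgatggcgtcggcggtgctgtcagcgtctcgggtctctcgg
Cox10: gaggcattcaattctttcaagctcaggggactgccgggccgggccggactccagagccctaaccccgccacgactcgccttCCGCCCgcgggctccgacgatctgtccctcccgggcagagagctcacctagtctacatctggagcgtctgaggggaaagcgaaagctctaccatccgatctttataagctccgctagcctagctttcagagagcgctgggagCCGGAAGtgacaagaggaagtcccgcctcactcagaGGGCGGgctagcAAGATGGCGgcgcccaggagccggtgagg
The next 3 belong to members whose gene rank differed by 10 percentile points or more in a comparison and hold none of the 7 motifs: Uqcr10 (chr11:4704295-4704594, minus strand), Cox7b (chrX:106015450-106015749, plus strand) and the striated muscle isoform gene Cox7a1 (chr7:30183921-30184220, plus strand).
Uqcr10: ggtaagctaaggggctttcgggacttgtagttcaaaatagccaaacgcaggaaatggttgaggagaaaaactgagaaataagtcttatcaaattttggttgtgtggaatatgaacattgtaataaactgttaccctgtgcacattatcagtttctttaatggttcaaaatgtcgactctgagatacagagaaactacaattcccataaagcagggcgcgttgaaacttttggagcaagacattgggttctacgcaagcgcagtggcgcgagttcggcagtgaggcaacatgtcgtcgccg
Cox7b: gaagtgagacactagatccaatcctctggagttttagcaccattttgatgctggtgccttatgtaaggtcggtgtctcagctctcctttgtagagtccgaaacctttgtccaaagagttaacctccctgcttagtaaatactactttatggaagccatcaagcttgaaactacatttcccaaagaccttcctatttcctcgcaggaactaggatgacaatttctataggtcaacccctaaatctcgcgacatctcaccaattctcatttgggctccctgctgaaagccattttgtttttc
Cox7a1: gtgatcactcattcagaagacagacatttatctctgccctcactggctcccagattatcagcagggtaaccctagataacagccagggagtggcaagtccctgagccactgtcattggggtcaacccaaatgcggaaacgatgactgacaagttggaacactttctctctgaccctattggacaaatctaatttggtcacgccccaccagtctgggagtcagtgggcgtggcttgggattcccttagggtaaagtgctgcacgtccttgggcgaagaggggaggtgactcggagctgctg
The last is Cox7a2 (chr9:79759804-79760103, minus strand), whose start site lies inside the annotated span of the gene.
Cox7a2: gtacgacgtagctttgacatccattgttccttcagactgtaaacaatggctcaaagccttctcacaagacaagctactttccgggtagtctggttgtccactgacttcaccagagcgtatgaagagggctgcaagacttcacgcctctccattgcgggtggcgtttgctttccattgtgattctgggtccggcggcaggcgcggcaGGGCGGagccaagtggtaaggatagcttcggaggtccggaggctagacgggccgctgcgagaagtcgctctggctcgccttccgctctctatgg

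RefSeq's promoter table held 25 of the 35 members, all but Sdhc, Uqcrc2, Uqcrb, Uqcrq, Cyc1, Cox4i1, Cox4i2, Cox6a2, Cox6c and Cox17. The ETS letters stood in 11 of these 25 windows (44.0%), in 11.6% of all 21263 promoter windows and in 11.8% of 34 complex I windows. The 11 were those of Sdhb, Sdhd, Uqcrh, Uqcr11, Cox6a1, Cox6b1, Cox8a, Cox10, Cox15, Surf1 and Sco1, which span all 3 complexes and the assembly factors. NRF1 letters stood in 6 of the 25 windows (24.0%), those of Sdha, Sdhd, Uqcrc1, Uqcr11, Cycs and Cox6a1, in 8.58% of all windows and in 26.5% of complex I windows. YY1 letters were in the window of Cox10 alone (4.0% of the 25), in 3.12% of all windows and in 20.6% of complex I windows. Sp1 letters were in 48.0% of the 25 windows, 46.2% of all windows and 47.1% of complex I windows. CRE letters were in 8.0% of the 25 windows and 2.23% of all, AP-1 letters in 8.0% and 6.99% (Cox7c and Uqcrh), and E-box letters in 4.0% and 7.84%. The 25 windows had a median GC content of 60.0% and 20 CpG dinucleotides, against 56.3% and 13 over all windows, and the part of this base composition in the motif shares was not tested. A match says only that these letters are present.

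**Figure D1:**
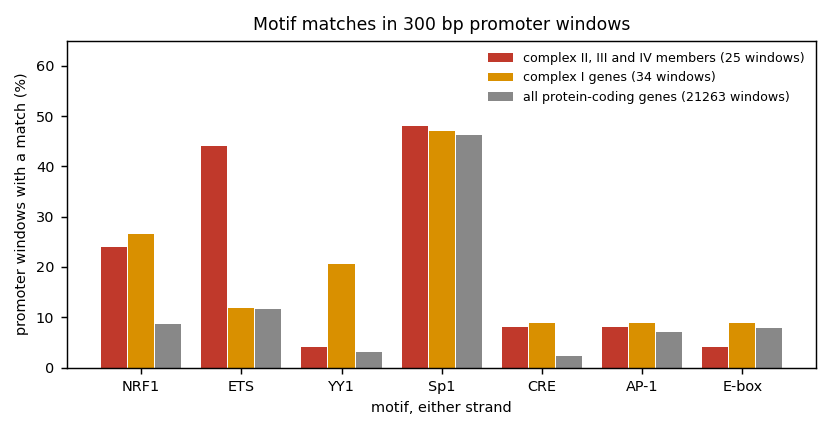
Share of 300 bp promoter windows that hold each of 7 motifs on either strand, as bars from 0, for 25 members (red), 34 complex I genes (orange) and all 21263 windows (grey). ETS letters were in 44.0% of the members' windows against 11.8% and 11.6%, and NRF1 letters in 24.0% against 26.5% and 8.58%.

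Most members had a well-ranked gene-end peak in every library. Of the 35 members, 23 held a strong one for control, the knockout and vehicle alike (65.7%) and 24 for rotenone (68.6%). Such a peak can lie at either end of the gene, so these are not counts of open promoters. Over all protein-coding genes the shares for control, the knockout, vehicle and rotenone were 35.7%, 35.8%, 35.6% and 36.5%. The median gene rank of the members was 75.3 for control against 73.4 for the knockout and 71.6 for vehicle against 70.9 for rotenone, against 50 for all genes by construction. The peak was strong in all 4 libraries at 20 members (57.1%), against 29.7% of all genes, strong in some libraries at 6 and in none at 9.

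The roles differed in this. All 4 libraries had a strong peak at 3 of 4 complex II genes, 6 of 9 complex III genes, Cycs, 5 of 14 complex IV subunit genes and 5 of 7 assembly genes. Of the 9 members without a strong gene-end peak in any library, 7 were complex IV subunit genes, namely Cox4i1, Cox4i2, Cox5a, Cox6a2, Cox6c, Cox7a1 and Cox7a2, and the others were Uqcr11 and Surf1. Of these, Cox5a and Cox7a2 have start sites inside the annotated span, 3904 and 4612 bp from the nearer gene end. At those start sites both had a strong peak in every library, and ranked by start-site peaks in control they stood at 65.8 and 86.2. The complex IV subunit count and median do not include these promoter peaks. Cox4i2, Cox6a2 and Cox7a1 encode tissue isoforms. The median gene rank in control was 76.6 for complex II, 78.3 for complex III, 59.2 for the complex IV subunits and 81.4 for the assembly factors. For comparison, the median control gene rank was 72.8 for 36 complex I genes and 82.2 for 16 ATP synthase genes, where 24 and 11 genes had a strong gene-end peak.

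**Figure D2:**
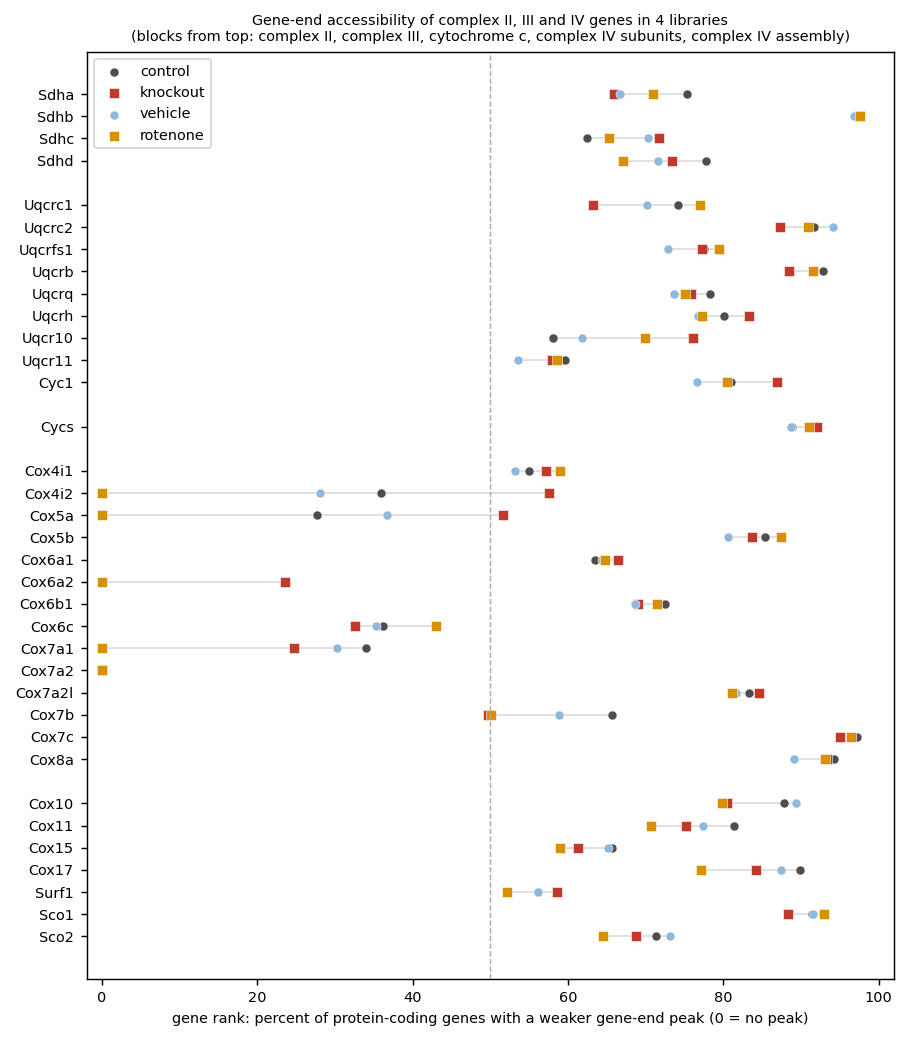
Gene rank (percent of protein-coding genes with a weaker gene-end peak, 0 for no peak) of all 35 members in the control (black circle), knockout (red square), vehicle (blue circle) and rotenone (orange square) libraries, 1 library each, with a dashed line at 50, the middle of all genes; symbols at the same value cover each other, as at 0 for Cox7a2. Sdhb and Cox7c stayed above 95 in all 4 libraries. Cox4i2, Cox5a and Cox7a1 moved by 28.1 to 36.7 points between vehicle and rotenone, where they had no gene-end peak. In the knockout Cox4i2 and Cox5a stood at 57.5 and 51.6.

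In complex II, Sdhb, which encodes the iron-sulfur subunit, had the best-ranked gene-end peak of all members in control. Its fold was 14.9 for control against 11.8 for the knockout and 13.7 for vehicle against 12.2 for rotenone, with gene ranks of 97.5, 97.4, 96.8 and 97.6, so the libraries lay within 1 percentile point of each other. Sdhc, one of the membrane anchors, had the lowest control rank of the complex. Its peak had a fold of 4.98 for control against 5.09 for the knockout and 6.51 for vehicle against 4.77 for rotenone and was just short of strong in control alone, with gene ranks of 62.5, 71.7, 70.3 and 65.3. Sdha, the flavoprotein subunit that binds succinate, had gene ranks of 75.3, 65.9, 66.7 and 70.9, and the other membrane anchor, Sdhd, 77.8, 73.4, 71.6 and 67.1. For Sdha and Sdhd control was the highest library, and vehicle lay nearer to the knockout than to control.

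In complex III, the 9 genes had control gene ranks from 58.0 to 92.9. The highest was Uqcrb, a small subunit near the ubiquinone site, with folds of 9.42 for control against 7.52 for the knockout and 10.5 for vehicle against 9.65 for rotenone. The gene ranks of Uqcrb were 92.9, 88.5, 91.8 and 91.6, with the knockout lowest. Uqcrc2, a core subunit, was close behind at 91.6, 87.3, 94.1 and 90.9, again with the knockout lowest. Cyc1, the cytochrome c1 haem protein, had gene ranks of 81.0, 86.9, 76.6 and 80.5, with the knockout highest. Uqcrfs1, the Rieske iron-sulfur protein, had 77.5, 77.2, 72.8 and 79.4. The small subunits Uqcrq and Uqcrh stayed between 73.7 and 83.3 in all libraries, and Uqcr11 between 53.6 and 59.6.

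Uqcrc1 and Uqcr10 moved most within complex III. Uqcrc1, the other core subunit, had a fold of 6.76 for control against 4.01 for the knockout and 6.46 for vehicle against 6.44 for rotenone, with gene ranks of 74.1, 63.2, 70.2 and 77.0. Its peak was strong in 3 libraries and not in the knockout, where it was 31589th in the list, just past the limit of 30000. Uqcr10, a small subunit beside the Rieske protein and cytochrome c1, had the lowest control rank of the complex. Its peak had a fold of 4.21 for control against 5.60 for the knockout and 4.99 for vehicle against 5.25 for rotenone, with gene ranks of 58.0, 76.1, 61.8 and 69.9. The peak was 497 bp wide in control and 375 bp in vehicle, but 161 bp in the knockout and 170 bp in rotenone, where it was strong, and it reached across the start site in control alone. The peak also lay within 1000 bp of an end of Zmat5, so its signal cannot be given to Uqcr10 alone.

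Cycs, the electron carrier between complexes III and IV, was strong in all 4 libraries. Its fold was 8.77 for control against 8.58 for the knockout and 9.27 for vehicle against 8.43 for rotenone, with gene ranks of 88.8, 92.1, 88.7 and 91.0. The knockout and rotenone lay 3.28 and 2.30 points above their comparison libraries, well under the 10 points used to call a difference.

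The 14 complex IV subunit genes were the most spread. Cox7c, a small membrane subunit, had a fold of 12.0 for control against 10.6 for the knockout and 11.9 for vehicle against 12.8 for rotenone and gene ranks of 97.3, 95.04, 96.4 and 96.5. Cox8a, Cox5b, Cox7a2l and Cox6b1 were also strong in every library, with gene ranks from 68.7 to 94.3. Cox7a2l encodes a factor that joins complexes III and IV into supercomplexes. Cox6c had only weak gene-end peaks, with folds from 2.20 to 2.93 and gene ranks from 32.6 to 43.0.

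The isoform pairs differed in their gene-end peaks. Cox4i1, the broadly expressed form of subunit 4, had folds of 4.16 for control against 3.41 for the knockout and 4.05 for vehicle against 4.10 for rotenone, with gene ranks of 55.0, 57.2, 53.1 and 59.0. Cox4i2, the form known from lung and from hypoxic cells, had folds of 2.49, 3.60 and 2.33 in control, the knockout and vehicle and no gene-end peak in rotenone, with gene ranks of 35.9, 57.5, 28.1 and 0. These peaks were 29 to 68 bp wide and did not lie at the same position in the libraries. Cox6a1, the broadly expressed form of subunit 6a, had folds of 5.12, 4.37, 5.65 and 4.80 and gene ranks of 63.4, 66.5, 64.3 and 64.8. Its heart and skeletal muscle counterpart Cox6a2 had a gene-end peak in the knockout alone, with a fold of 1.98, a width of 16 bp and a place of 581613th among 585165 peaks. Cox7a1, the striated muscle form of subunit 7a, had folds of 2.39, 2.00 and 2.46 in control, the knockout and vehicle and no gene-end peak in rotenone, with gene ranks of 34.0, 24.7, 30.3 and 0. For Cox6a2, Cox7a1 and, in control and vehicle, Cox4i2 the values therefore rest on weak peaks. In the knockout the Cox4i2 peak was 43970th in its list, beside 44954th for Cox4i1. The muscle forms were in the lower part of the ranking in every library.

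Cox7a2, the liver and broadly expressed form of subunit 7a, had no gene-end peak in any library, and Cox5a only weak ones. In both genes the RefSeq start site lies inside the annotated span, 4612 bp from the nearer end in Cox7a2 and 3904 bp in Cox5a, whereas the start sites of the other 23 members with one in the table were within 100 bp of an end. At its start site, in the window printed above, Cox7a2 had a strong peak in every library, at chr9:79759412-79760064 in control. The fold there was 9.43 for control against 8.13 for the knockout and 8.48 for vehicle against 10.9 for rotenone, and the width 653, 488, 648 and 290 bp. Cox5a had a start-site peak at chr9:57520817-57521345 in control, with folds of 5.66, 4.60, 5.79 and 6.72, also strong in all 4 libraries. Ranked by start-site peaks in place of gene-end peaks, Cox7a2 stood at 86.2 for control against 88.9 for the knockout and 80.8 for vehicle against 91.9 for rotenone. On the same scale Cox5a stood at 65.8, 67.2, 65.5 and 77.6. Both were thus higher in rotenone than in vehicle, by 11.2 points for Cox7a2 and 12.1 for Cox5a. At start sites, 20, 19, 19 and 20 of 25 members had a strong peak in control, the knockout, vehicle and rotenone. The same share over all genes with a start site was not counted, so these counts and start-site differences have no background here.

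Among the assembly factors, the copper chaperone Cox17, which brings copper to the membrane, had a fold of 11.1 for control against 6.90 for the knockout and 10.6 for vehicle against 6.33 for rotenone. The gene ranks of Cox17 were 89.9, 84.3, 87.5 and 77.1, with control and vehicle above the other libraries. Cox10, which makes the haem O precursor of haem A, had folds of 9.61, 6.03, 11.0 and 6.82 and gene ranks of 87.9, 80.5, 89.4 and 79.8. Cox11, which serves the copper B site, stood at 81.4, 75.2, 77.4 and 70.7, and Cox15, the haem A synthase, at 65.6, 61.3, 65.1 and 58.9. These 4 genes shared the order of control and vehicle above the knockout and rotenone. Of the factors that bring copper to the copper A site, Sco2 had that order too, at 71.3, 68.7, 73.2 and 64.5. Sco1, the highest of the role in control, did not, at 91.4, 88.4, 91.5 and 93.0. Surf1, the lowest of the role in control and a gene of haem insertion, stood at 56.1, 58.7, 56.2 and 52.1.

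In 14 of the 33 members with a control gene-end peak, that peak was also within 1000 bp of an end of another protein-coding gene. These pairs include Sdha with Ccdc127, Sdhd with Timm8b, Uqcrh with Lrrc41, Cox4i1 with Emc8, Cox11 with Stxbp4, Cox15 with Cutc, Surf1 with Surf2, Sco1 with Adprm and Sco2 with Ncaph2. The peaks of such pairs describe the shared region and not the member alone. Of the members with a start site and a strong control gene-end peak, 18 in all, the peak midpoints lay from -234 to 212 bp from the start site, with negative values upstream.

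The knockout was compared with control to ask how accessibility differed in cells labelled Sod2-/-. A gene rank was called different when it moved by 10 percentile points or more. Of 34 members with a gene-end peak in either library, 4 were higher in the knockout, by 18.1 points for Uqcr10, 21.6 for Cox4i2, 23.9 for Cox5a and 23.6 for Cox6a2. Over all genes 18.1% were called higher, so the members' share of 11.8% was not above the background. Lower were 2 of 34 members, Uqcrc1 by 10.9 points and Cox7b by 16.0 points, against 16.3% of all genes. With a window of 500 bp the difference of Uqcrc1 was -9.82 and not called, and those of Cox4i2 and Cox6a2 were 0. Cox5a at its start site, in contrast to its weak gene-end peaks, moved by 1.36 points. Just short of the threshold were Sdha, with a difference of -9.39 points, Cox7a1, with -9.25, and Sdhc, with 9.21.

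Among members whose gene-end peak was among the 60000 strongest of at least 1 of both libraries, a base chosen after seeing the data, 2 of 30 were higher in the knockout (Uqcr10 and Cox4i2) and 2 lower (Uqcrc1 and Cox7b). The shares over all genes on that base were 10.2% higher and 10.7% lower. The median difference over all members was -2.01 points, against 0.03 over all genes, and 22 of 34 members lay below 0. Vehicle against control, which differ in neither Sod2 nor rotenone, had a median difference of -1.85 points over the members, with 24 of 33 below 0, close to the values for the knockout.

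Rotenone was compared with vehicle to ask how accessibility differed after an inhibitor of complex I. None of 33 members was higher by 10 points, against 16.3% of all genes, and 4 were lower, against 18.2% of all genes. Cox17 differed by -10.4 points, and by -9.34, which was not called, with a window of 500 bp. Cox4i2, Cox5a and Cox7a1 differed by -28.1, -36.7 and -30.3 points, as each had a weak gene-end peak in vehicle and none in rotenone. Ranked by start-site peaks, Cox5a turned to 12.1 points higher in rotenone, and Cox7a2 was 11.2 points higher. The share of all genes that moved by 10 points on that scale was not counted. On the base of the 60000 strongest peaks, 0 of 29 members were higher, against 10.5% of all genes, and only Cox17 was lower, against 11.4% of all genes. Cox10 was just short of the call with -9.59 points at the gene end, and had -10.3 points when ranked by start-site peaks. The median difference was 0.48 points over all members and -0.07 over all genes.

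Between vehicle and control no member moved by 10 points in either direction, out of 33 tested. Over all genes 9.93% were higher in vehicle and 12.1% lower, and on the base of the 60000 strongest peaks, with 29 members tested and 0 called, 4.4% and 3.8%. This comparison shares the control library with the knockout comparison and the vehicle library with the rotenone comparison.

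**Figure D3:**
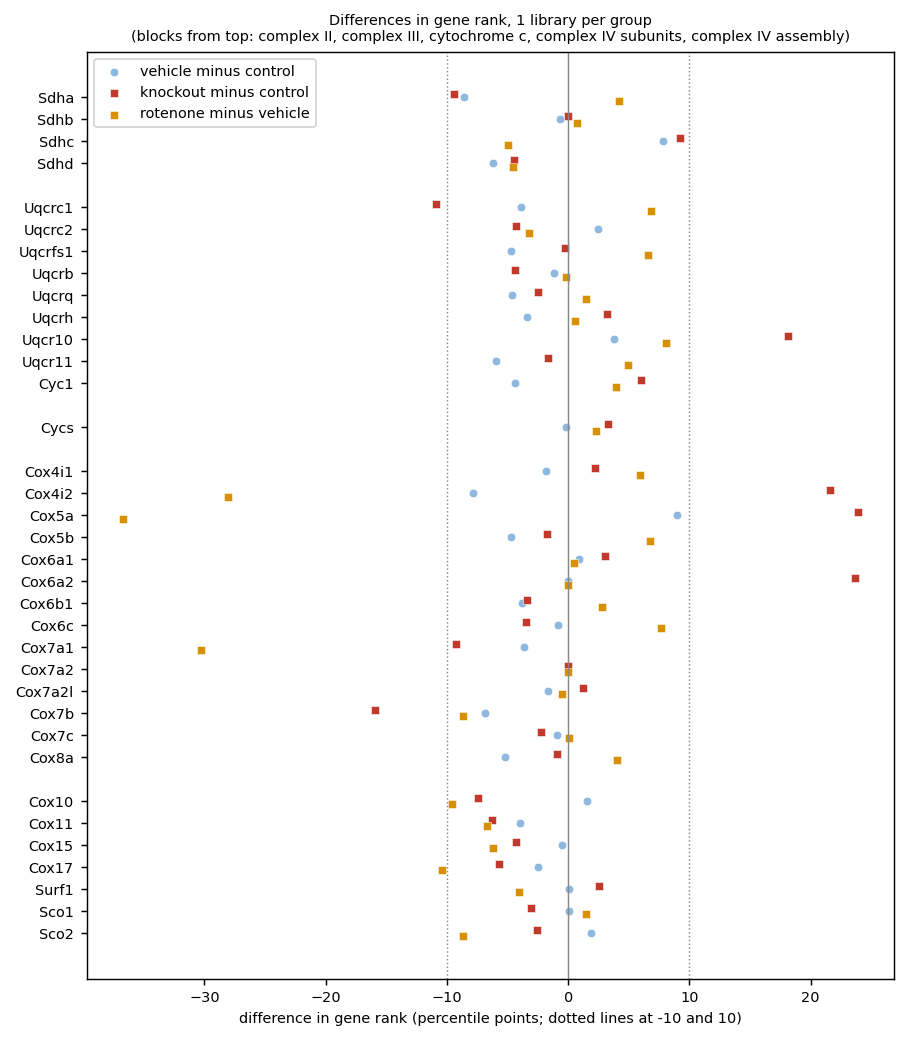
Difference in gene rank of each member, in percentile points, for knockout minus control (red squares), rotenone minus vehicle (orange squares) and vehicle minus control (blue circles), with dotted lines at the call threshold of 10 points either way. The points beyond the lines are Uqcr10, Cox4i2, Cox5a and Cox6a2 to the right and Uqcrc1 and Cox7b to the left for the knockout, and Cox4i2, Cox5a, Cox7a1 and Cox17 to the left for rotenone.

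The roles were set side by side over both comparisons, which share no library. Of the 7 assembly factors, 5 were lower in the knockout than in control and also lower in rotenone than in vehicle, by any amount (71.4%). They were Cox10 with -7.42 and -9.59 points, Cox11 with -6.24 and -6.68, Cox15 with -4.29 and -6.19, Cox17 with -5.69 and -10.4, and Sco2 with -2.56 and -8.68. Ranked by fold in place of −log10 p, Sco2 in the knockout had 0.42. Over all 11992 genes with a gene-end peak among the 60000 strongest of any library, 34.8% were lower in both. The members as a whole were below that share, with 9 of 30 lower in both (30.0%), the others being Sdhd, Uqcrc2, Uqcrb and Cox7b. The median difference of the assembly factors was -4.29 points for the knockout, -6.68 for rotenone and 0.05 for vehicle against control. Only 1 of these 14 values, that of Cox17 in rotenone, passed the call threshold. The 31 other genes of complexes II to IV, mostly assembly factors and tissue isoforms, had 10 of 26 lower in both (38.5%), near the share of all genes. Of the fibroblast markers, 5 of 7 were lower in both (71.4%), with medians of -6.13 points for the knockout, -5.62 for rotenone and 0.08 for vehicle against control over the markers with a gene-end peak in either library. The part of this marker difference in the result was not tested, and the assembly factors were singled out after their values were seen.

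Higher in both comparisons were 6 of 30 members, namely Uqcrh, Uqcr10, Cyc1, Cycs, Cox4i1 and Cox6a1, against 32.8% of all genes. Of the complex I genes, 16 of 33 were higher in both (48.5%), above that share. Lower in both were 10 complex I genes (30.3%), below the 34.8% of all genes, where the members also lay. Of 14 ATP synthase genes, 5 were lower in both (35.7%) and 3 higher (21.4%). Over genes with a gene-end peak in either library, complex III had a median difference of -1.67 points in the knockout and 3.93 in rotenone. Complex I had 1.18 and 2.45, or 1.14 and 1.36 on the base of the 60000 strongest peaks. In vehicle against control the medians were -3.91 for complex III and -1.08 for complex I. That comparison shares the vehicle library with the rotenone comparison. With 1 library per group the difference between these lists was not tested.

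Strong peaks that appeared or disappeared were few. A strong peak was called gained when it overlapped none of the partner library's 60000 strongest peaks by 1 bp, and lost the other way round, and peaks anywhere in the gene span or within 1000 bp of it were counted. In the knockout against control, 1 of 27 strong peaks at the members was gained, against 5.33% of all strong peaks, and 2 of 28 were lost, against 6.76%. In rotenone against vehicle, 0 of 26 were gained, against 6.81%, and 1 of 29 was lost, against 8.04%. In vehicle against control, 1 of 29 was gained, against 1.03%, and 0 of 28 were lost, against 0.847%.

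The gained peak lay inside Cox10, at chr11:64066142-64066245, 13279 bp from the nearer gene end. Its fold was 3.59 for control against 4.22 for the knockout and 2.96 for vehicle against 4.07 for rotenone, so it stood only just among the strong peaks of the knockout and only just outside the 60000 strongest of control. The lost peak of Cox7b was its promoter peak at chrX:106015585-106015761. Its fold was 5.54 for control against 2.94 for the knockout and 4.80 for vehicle against 3.39 for rotenone, with widths of 177, 103, 202 and 80 bp. Cox7b, a small membrane subunit of complex IV encoded on the X chromosome, had gene ranks of 65.7, 49.7, 58.8 and 50.1, so that control and vehicle lay above the knockout and rotenone. Its peak was weak in vehicle also, at 40315th in the list, and the difference of -8.69 points between rotenone and vehicle was not called.

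The other lost peak in the knockout lay inside Sdhb, at chr4:140964712-140964879, 3524 bp from the nearer gene end and apart from the promoter peak. Its fold was 5.19 for control against 2.35 for the knockout and 4.42 for vehicle against 2.92 for rotenone, while the promoter peak of Sdhb kept its rank. The peak lost in rotenone lay inside Uqcrc2, at chr7:120636062-120636165, with a fold of 2.93 for control against 2.44 for the knockout and 4.70 for vehicle against 2.99 for rotenone. It was strong in vehicle alone, and is for that reason also the 1 peak gained in vehicle against control. At each of these 4 sites every library held a peak of some strength, so none of them was absent from a list.

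**Figure D4:**
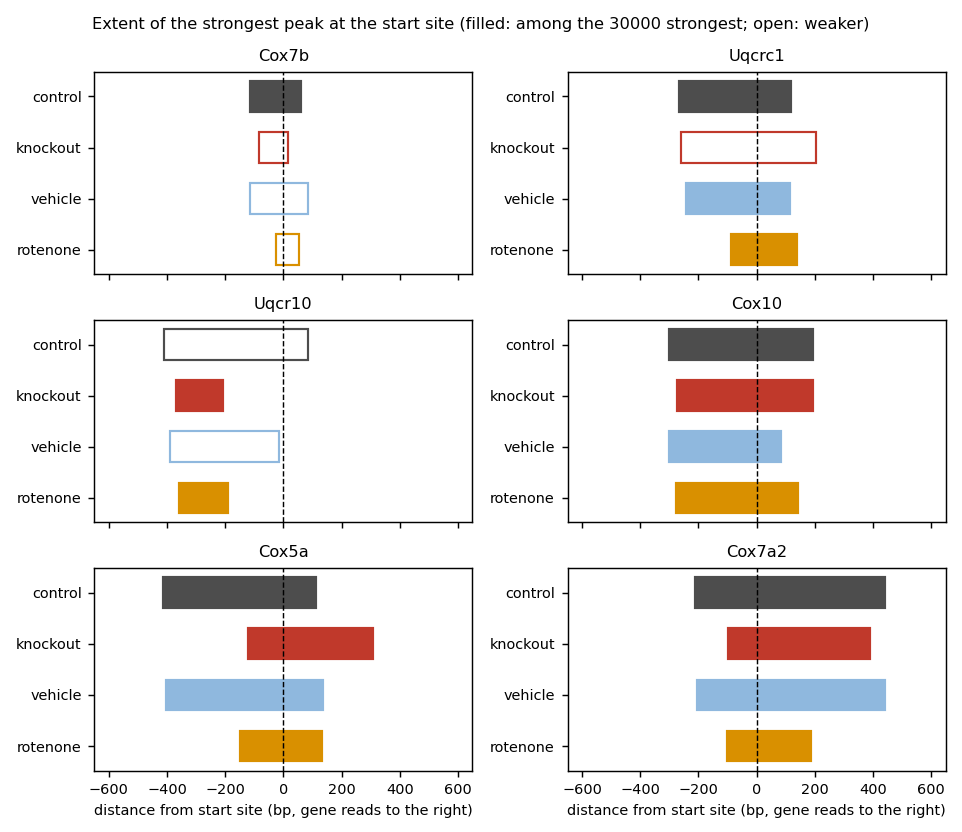
Extent of the strongest peak at the start site of 6 members in each library, in bp from the start site with the gene reading to the right, filled where the peak was among the 30000 strongest and open where it was weaker. Cox7b is filled in control alone, Uqcrc1 is open in the knockout alone, the Uqcr10 peak is 161 and 170 bp wide in the knockout and rotenone, and Cox5a and Cox7a2 are filled in all libraries.

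The members' strong peaks were mostly narrower in the knockout and in rotenone, as were those of other genes. Where the gene-end peak was strong in both libraries and overlapped, it was narrower in the knockout than in control at 16 of 20 members (80.0%), with median widths of 531.5 and 623.5 bp. Over all genes 82.4% were narrower. In rotenone against vehicle, 16 of 22 were narrower (72.7%), with medians of 511 and 660.5 bp, against 76.7% of all genes. In vehicle against control, 12 of 22 were narrower (54.5%), with medians of 660.5 and 613.5 bp, against 65.7% of all genes. The share narrower was thus near that of all genes in the knockout and rotenone comparisons, and below it in vehicle against control. Over all genes the median widths were 463 and 603 bp for the knockout and control, and 465 and 565 bp for rotenone and vehicle. For vehicle and control they were 557 and 591 bp, so the members' peaks were wider in each comparison.

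Of the 31 other genes of complexes II to IV, 22 held a strong peak at a gene end for control, the knockout and vehicle alike and 24 for rotenone, with median gene ranks of 78.8, 79.2, 80.9 and 78.3. In the knockout 2 of 29 were higher by 10 points and 1 lower, against 18.1% and 16.3% of all genes. In rotenone 2 of 30 were higher and 1 lower, against 16.3% and 18.2%. None was called in both comparisons, and the share of all genes called in both was not counted. Of their strong peaks, 0 of 34 were gained in the knockout and 2 of 34 lost, against 5.33% and 6.76% of all strong peaks, and in rotenone 2 of 36 were gained and 3 of 34 lost, against 6.81% and 8.04%. Inside Coa5, a complex IV assembly factor, the peak at chr1:37419478-37419688 had a fold of 7.15 in control and 8.38 in vehicle and no overlapping peak of any strength in the knockout or rotenone. Inside Sdhaf2, the factor that attaches flavin to Sdha, the peak at chr19:10520499-10520653 had a fold of 7.95 for control against 2.55 for the knockout and 5.67 for vehicle against 3.03 for rotenone. Both of these intragenic peaks were thus called lost in the knockout and in rotenone. The share of all strong peaks lost in both comparisons was not counted, so this has no background. In rotenone a peak inside Cmc1, a complex IV assembly factor, was also lost, with a fold of 8.37 for control against 5.41 for the knockout and 9.01 for vehicle against 3.54 for rotenone. Gained in rotenone were weak intragenic peaks of Sdhaf2, with a fold of 3.20 in vehicle and 4.69 in rotenone, and of Uqcc1, a complex III assembly factor, with 3.26 and 4.76. Vehicle against control gained and lost 0 peaks at these 31 genes.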

How the data were processed

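ATAC-seq peak lists of 4 libraries, 1 per group, were analysed. Per the submitters' processing notes, Bowtie2, bedtools, MACS2 and HOMER and the build mm10 were used; the sources used here give no versions, settings or read shift. The authors deposited 1 list per library, called separately, with a score (not used), a fold enrichment (a ratio over local background) and −log10 p and −log10 q values. The lists have no header, and the columns were read in the order of MACS2 broad peaks. The lowest deposited −log10 q was about 1.00 in every list, so weak peaks are included. Depth is unknown, since no read counts were used.

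Gene spans came from RefSeq GRCm38.p6, the assembly behind mm10; positions are 1-based. Strong peaks, gene ranks, the threshold of 10 points and gained and lost peaks are defined in the report. Members and lists were chosen with earlier results of these data known. Values in every library were given for the highest and lowest member of each role, the isoform pairs, Cycs, members that moved by 10 points and members with a gained or lost peak; the values of further members were added after they were seen. Of the 31 other genes, those with a gained or lost peak were named. Alternatives changed the number of strong peaks, the ranking, the window, the threshold, the overlap and the lowest −log10 q. The overlap and rank code was tested on the control list with changes planted in it. Python 3.11.15, numpy 2.4.6, pandas 2.3.3 and matplotlib 3.10.9 were used.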

Additional observations from a re-analysis of the deposited data

How the results depend on the processing

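With 15000 peaks called strong, a strong gene-end peak stood at 15 members for the knockout, 13 for vehicle and 15 for rotenone. The number of members higher in the knockout was 1 with a 500 bp window, 1 with the gene start only and 2 on the base of the 60000 strongest peaks, which was added after seeing the data. The number lower in the knockout was 5 when ranked by fold, 4 with a 2500 bp window, 4 with −log10 q of 2 or more, 7 at 5 points and 0 at 20 points. The number higher in rotenone was 2 with a 2500 bp window, 2 with the gene start only and 6 at 5 points. The number lower in rotenone was 2 with a 500 bp window, 7 with a 2500 bp window, 2 with the gene start only, 2 with −log10 q of 2 or more, 9 at 5 points and 1 on the base of the 60000 strongest peaks. For vehicle against control, 1 member was higher and 2 lower with −log10 q of 2 or more, 2 higher and 6 lower at 5 points, 1 lower when ranked by fold and 1 lower with a 2500 bp window. Except on the base of the 60000 strongest peaks, the shares over all genes were not counted at these settings. The counts therefore do not say whether the members differ from other genes there.

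Gained peaks in the knockout numbered 3 with 60000 strong peaks against 120000 of the partner and 0 with partner peaks of any strength. Lost peaks in the knockout numbered 1 with 15000 against 30000, 5 with 60000 against 120000, 4 with 50% of the peak covered and 0 with partner peaks of any strength. In rotenone, 3 were gained with 60000 against 120000, and 0 were lost with 15000 against 30000, 4 with 50% covered, 0 when ranked by fold and 0 with partner peaks of any strength. The 1 peak gained in vehicle gave 0 with 15000 against 30000, 60000 against 120000, ranking by fold and partner peaks of any strength. The shares over all strong peaks were not counted at these settings, so these counts have no background.

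Called differences changed direction at Cox4i2 and Cox5a, whose gene-end peaks were strong in no library. Cox4i2 in the knockout had -24.33 points with a 2500 bp window, which takes in a peak downstream of the gene. Cox5a in the knockout had -36.34 points with a 500 bp window, and in rotenone 15.38 with a 2500 bp window and 12.09 with the gene start only, where its start-site peak is read. The shift of Uqcrc1 in the knockout was -9.82 and that of Cox17 in rotenone -9.34 with a 500 bp window, both below the threshold. Cox7a1 in the knockout, which was not called, had 12.03 with a 2500 bp window against -33.97 with −log10 q of 2 or more. Ranked by fold, Sco2 in the knockout, also not called, had 0.42 against -2.56, while Cox10 and Cox17 passed the threshold with -11.57 and -10.67. The cause of these differences between settings was not tested. No paired analysis was possible because each group had 1 library. Depth is unknown, and the width of a difference between libraries of the same group could not be measured.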

Other observations

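A strong peak lay just beyond the window of Cox4i2, 1518 bp from the nearer gene end at chr2:152766342-152766773. Its fold was 7.88 for control against 3.67 for the knockout and 8.81 for vehicle against 4.21 for rotenone, and its place in the list 12461, 41395, 10469 and 37578. Control and vehicle were thus strong there, and the knockout and rotenone were not. Whether this region acts on Cox4i2 was not tested. Beyond the window of Cox6b1, 2330 bp from the nearer gene end at chr7:30614583-30614699, a peak had a fold of 5.85 for control against 3.92 for the knockout and 5.69 for vehicle against 4.90 for rotenone, strong in all but the knockout.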
